A study of Mus musculus with 10 samples.

Results

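The Hippo pathway and its YAP target genes were followed across 5 chromatin tables of mouse primary cardiac fibroblasts. The 9 genes were Lats2, Amotl2, Yap1, Wwtr1, Tead1, Vgll3, Ccn1, Ccn2 and Ankrd1, and every listed region that the authors' annotation assigned to one of them was taken, with the older names Cyr61 and Ctgf allowed. They were chosen by pathway with the H3K9lc, JUN, SMAD3 and NFATC2 read counts of these tables already known, so the counts below are a description and carry no test. Of the 9 genes, 8 had a listed region, and these 8 genes held 234 of 340994 regions over the 5 tables. No region carried the name Ccn2 or Ctgf.

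All samples were heart fibroblasts, and the libraries were made by CUT&Tag, in which an antibody guides a transposase to chromatin so that nearby DNA can be sequenced. Cardiac fibroblasts were used in 3 conditions: no treatment (NC), TGF-β, and TGF-β after transfection of an siRNA against hexokinase 1 (siHK1). Whether the TGF-β cells received a control siRNA is not in the labels, and neither are the strain, the age or the number of animals. H3K9lc, lactylation of histone H3 at lysine 9, was measured in all 3 conditions, and c-JUN (JUN), SMAD3 and NFATC2 in TGF-β with and without siHK1. Each condition and antibody had 1 library, so every comparison is between libraries and has no replicate check, and the files used here hold no RNA or protein values with which the knockdown of HK1 could be checked. The siHK1 library for H3K9lc is titled SI, and the NC title names no antibody, so NC was taken as H3K9lc from the table its label names.

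In the Hippo pathway a kinase cascade ending in LATS1 and LATS2 phosphorylates the co-activators YAP and TAZ (the product of Wwtr1) and holds them in the cytoplasm. When the kinases are inactive, YAP and TAZ enter the nucleus and act through TEAD transcription factors on genes such as Ccn1, Ccn2 and Ankrd1. In fibroblasts the pathway responds to stiffness and tension, and TEAD sites often lie beside sites for AP-1, the family of JUN.

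Total reads over the listed regions ran from 115572 in the NC library to 4215447 in the TGF-β JUN library, and these totals are not the full library depths. Median reads per region were 32 and 17 in the JUN pair (TGF-β and siHK1) and 16 and 8 in the H3K9lc pair. In the SMAD3 pair they were 4 and 3, and in the NFATC2 pair 3 and 2. In the SMAD3 and NFATC2 tables, the 50 regions with the most reads held from 31.9% to 37.3% of all listed reads of a library. As a check of the cell type, JUN regions annotated as promoter were found at 7 of 8 fibroblast markers (all but Lum). The same was true of 2 of 6 cardiomyocyte, 3 of 5 endothelial, 2 of 5 macrophage and 2 of 3 smooth muscle markers, where the regions lay at Myh6 and Tnni3, at Cdh5, Pecam1 and Tie1, at Cd68 and Csf1r, and at Cnn1 and Smtn. No such region lay at Actn2, Nppa, Ryr2, Tnnt2, Emcn, Kdr, Adgre1, Lyz2, Ptprc or Myh11. Reads per listed marker in TGF-β and siHK1 were 103 and 55.6 for fibroblast and 113 and 62.7 for smooth muscle markers, 54 and 30.2 for macrophage, 26.4 and 13 for endothelial and 22 and 9.33 for cardiomyocyte markers. The smooth muscle value was above the fibroblast value in both libraries. By the median percentile, among all JUN regions, of the strongest promoter region of each marker that had one, smooth muscle (85.7) and macrophage markers (83.9) were above fibroblast markers (76.9). The part of other cell types in the results was not tested, and a JUN region at a promoter is not a measure of expression.

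The sequences upstream of these genes were searched for the TEAD motif. Several members are known as YAP and TEAD targets, so a TEAD motif at their promoters is tied to the choice of members and its share is a description. RefSeq promoter sequences (GRCm38.p6) were matched for 7 of the 9 genes, and the letters GGAATG, the core of the TEAD recognition site, were searched on both strands in the 250 bases before the start site. Of the 7 genes, 6 held the motif (Ankrd1, Ccn1, Wwtr1, Yap1, Amotl2 and Vgll3, but not Lats2), against 14.4% of 27025 genes with any promoter entry. Ankrd1 held it at 2 places. The other 3 motifs searched in the same windows share with GGAATG at most the letters GGAA, which also begin the NFAT core. TGANTCA, the AP-1 site, was in 0 of the 7 genes (7.82% of all), CAGAC, a SMAD site, in 2 (45.8% of all) and GGAAA, the NFAT core, in 3 (58.8% of all). The upstream windows of Ccn1, Wwtr1 and Vgll3 are printed whole because a JUN region overlapped each of them and they touch no annotated exon, and the TEAD motif is in capitals, as GGAATG or, on the other strand, CATTCC.
Ccn1, chr3:145649986-145650235, minus strand: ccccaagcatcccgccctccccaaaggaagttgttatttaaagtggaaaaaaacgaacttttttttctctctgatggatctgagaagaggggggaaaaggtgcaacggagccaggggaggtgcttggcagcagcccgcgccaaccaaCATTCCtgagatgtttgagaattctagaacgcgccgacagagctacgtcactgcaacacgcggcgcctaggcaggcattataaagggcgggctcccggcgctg
Wwtr1, chr3:57575911-57576160, minus strand: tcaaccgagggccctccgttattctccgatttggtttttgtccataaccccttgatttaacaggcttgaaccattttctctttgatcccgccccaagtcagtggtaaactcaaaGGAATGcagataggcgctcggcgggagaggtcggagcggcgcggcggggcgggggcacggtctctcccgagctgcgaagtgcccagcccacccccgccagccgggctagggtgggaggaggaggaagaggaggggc
Vgll3, chr16:65814939-65815188, plus strand: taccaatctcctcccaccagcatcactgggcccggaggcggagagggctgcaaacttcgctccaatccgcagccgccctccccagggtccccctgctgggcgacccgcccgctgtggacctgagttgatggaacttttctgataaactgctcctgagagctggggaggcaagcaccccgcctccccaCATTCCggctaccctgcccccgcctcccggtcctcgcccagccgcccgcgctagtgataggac

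The windows of Ankrd1, Amotl2 and Yap1 touch annotated exons, so only the motif and its flanks are shown, 30 bases each.
Ankrd1, chr19:36120037-36120066, minus strand, 210 bases before the start: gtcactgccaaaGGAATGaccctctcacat
Ankrd1, chr19:36119950-36119979, minus strand, 123 bases before the start: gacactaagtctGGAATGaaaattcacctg
Amotl2, chr9:102717727-102717756, plus strand, 65 bases before the start: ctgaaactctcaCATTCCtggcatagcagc
Yap1, chr9:8004720-8004749, minus strand, 141 bases before the start: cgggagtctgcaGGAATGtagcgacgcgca
In Ccn1 and Vgll3 the motif began 103 and 63 bases before the start, and in Wwtr1 136 bases before the start that follows the printed window and 170 bases before its other RefSeq start. The motif match is a description of letters and does not show that a TEAD protein was bound there.

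A JUN region lay within 1.92 kb of the start of each of the 8 genes, whereas no H3K9lc region lay closer than 2.55 kb. Of 83 JUN regions of these genes, 17 (20.5%) were annotated as promoter, against 25.6% of all JUN regions. Of 30 H3K9lc regions, 1 (3.33%) was, against 6.78% of all H3K9lc regions. That region was 2552 bases upstream of Vgll3 and had 11 reads in TGF-β and 5 in siHK1. The nearest H3K9lc region in the TGF-β and siHK1 table lay 3.76 kb from the start of Ankrd1 and 14.5 kb from that of Amotl2. Distances are from the 5′ end of the gene in GENCODE vM21. It lay 18.0 kb from the start of Lats2, 40.1 kb from Tead1, 49.2 kb from Wwtr1 and 53.2 kb from Ccn1. For Yap1 the nearest, at 46.7 kb, was assigned to Cfap300, and Yap1's own regions lay at the far end of the gene, in its 3′ UTR.

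**Figure D1:**
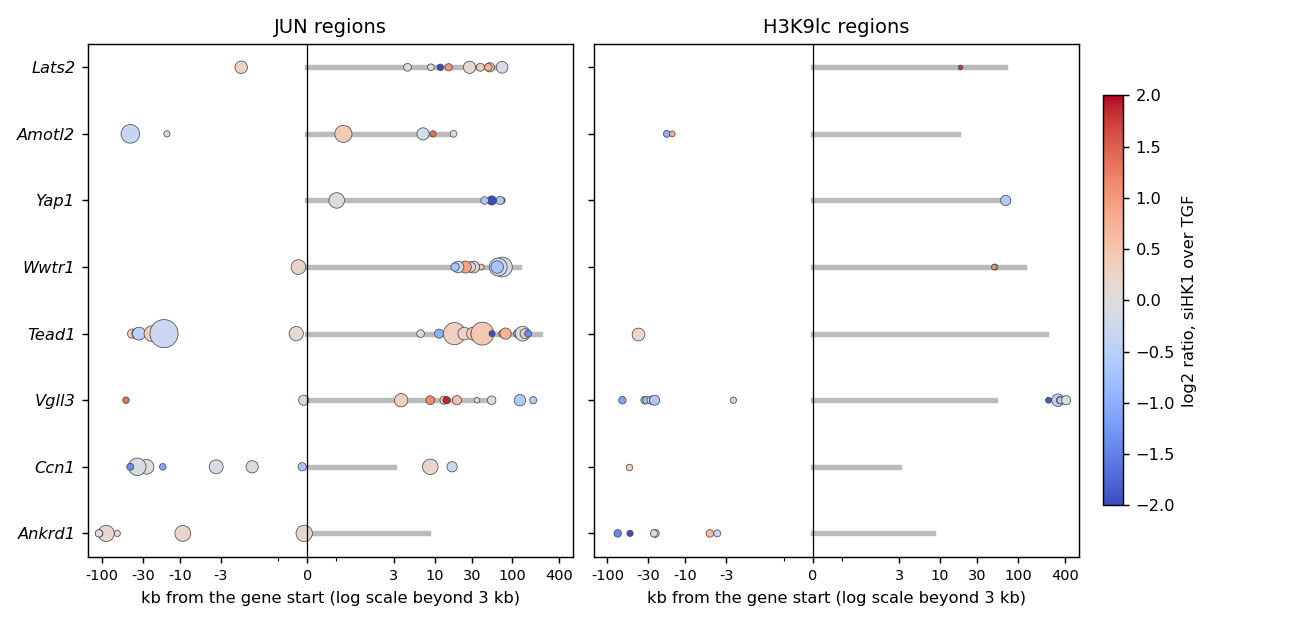
Position of each JUN region (left) and H3K9lc region (right) relative to the start of its gene in GENCODE vM21, in kb, with a log scale beyond 3 kb; grey bars are the gene bodies, point area grows with the TGF-β reads and colour gives the log2 ratio of siHK1 over TGF-β, limited to ±2. JUN regions sit at the starts and through the gene bodies, and the 30 H3K9lc regions sit mostly upstream of Ankrd1 and on both sides of Vgll3.

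Reads and level are given below in 2 ways. Reads are the deposited counts of TGF-β and siHK1, and levels are reads per kb per 1000000 listed reads (RPKM over the listed regions), so that regions of different length can be compared. Ratios are siHK1 over TGF-β on the log2(count + 0.5) scale after the authors' scaling, and a region past 2-fold (a log2 ratio of 1 or more in size) is called lower or higher. Ratios of summed reads are at equal library totals, with an exact binomial 95% interval. Intervals reflect counting error alone, and copies made by PCR make them too narrow. A region with a peak call in only the TGF-β or only the siHK1 library was listed through that library, and the intervals do not allow for that.

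Among the 83 JUN regions, 8 were lower in siHK1 by 2-fold (9.64%, with 13.7% of all 72990 JUN regions lower) and 5 were higher (6.02%, with 5.66% of all higher). The other 70 were within 2-fold. The median log2 ratio was -0.04 over these regions and -0.13 over all JUN regions, and at equal totals these were 0.06 and -0.045. Of the 8 lower regions, 2 had 0 reads in siHK1. Among the 8, 7 had fewer than 20 reads in both libraries together, and none was above the median JUN level. Both libraries had a JUN peak at 46 of the 83 regions (55.4%, against 49.7% of all JUN regions), 30 had one in TGF-β alone and 7 in siHK1 alone.

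**Figure D2:**
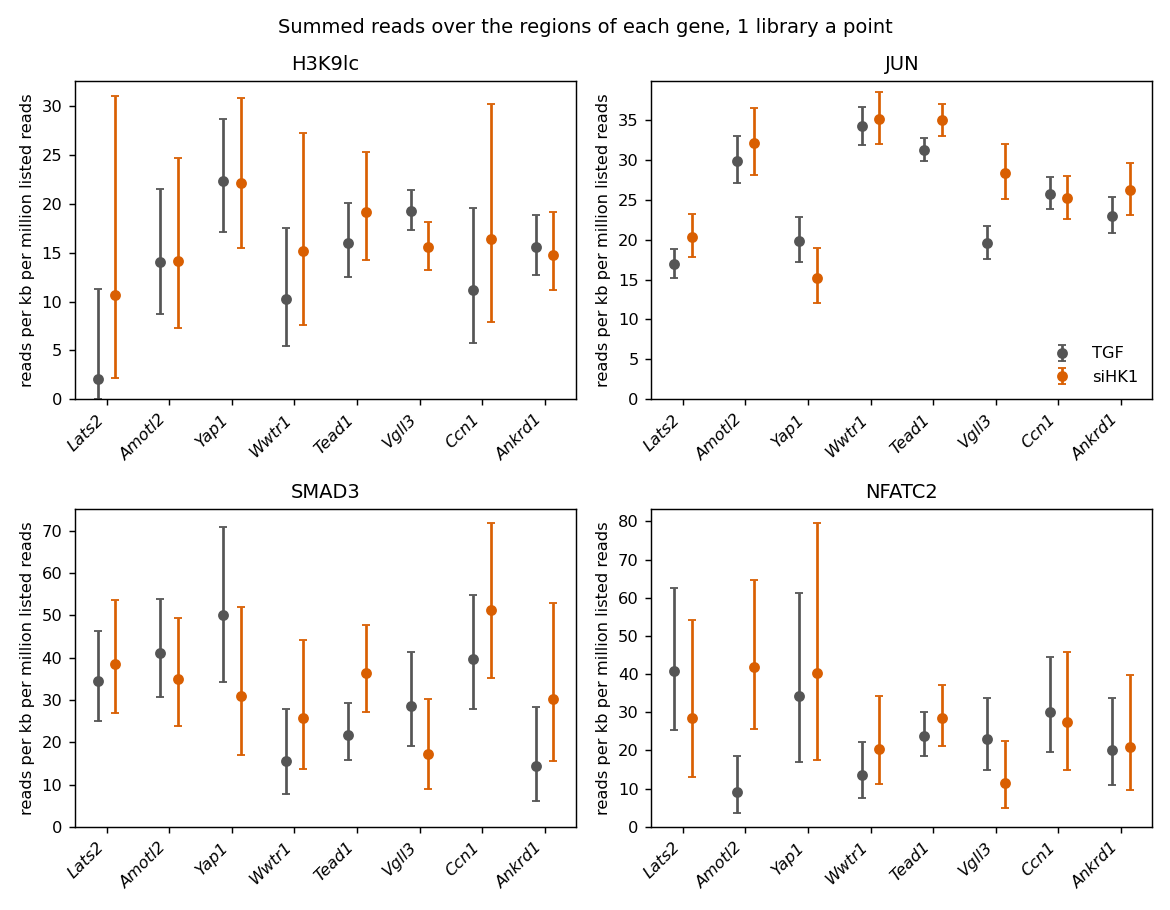
RPKM over the listed regions, summed over the regions of each gene, in the TGF-β library (grey) and the siHK1 library (orange) for each antibody; bars are exact 95% Poisson intervals of the counts. JUN levels of the 2 libraries lie closest for Wwtr1 and Ccn1 and farthest apart for Vgll3, and the SMAD3 and NFATC2 intervals are wide.

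Lats2, the kinase that phosphorylates YAP and TAZ, had 11 JUN regions with 345 reads in TGF-β and 224 in siHK1. The summed log2 ratio was 0.27 (0.02 to 0.52), whereas the mean of its regions' deposited ratios was -0.30. Its region with the highest JUN level by the deposited values, chr14:57760310-57761041, lies 1922 bases upstream of a start site and had 70 and 48 reads. A second promoter region, chr14:57743030-57743435, had 17 and 21 reads (log2 ratio 1.04), and another, chr14:57749301-57749536, had 13 and 7 (-0.12). The region on a start site, chr14:57746427-57746661, had 11 reads in TGF-β and 1 in siHK1, an equal-totals log2 ratio of -2.05 (-8.00 to 0.22). An intronic region, chr14:57728554-57728881, had 11 reads in TGF-β and 0 in siHK1. The equal-totals interval of its log2 ratio ended at -0.44. Across the Lats2 gene 2 of 11 regions were lower, 1 was higher and 8 were neither.

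Amotl2 encodes an angiomotin-like scaffold that binds YAP and is itself a YAP target. Its promoter region chr9:102717304-102718547, which spans the TEAD motif shown above, had 140 JUN reads in TGF-β and 101 in siHK1, a log2 ratio of 0.39. A second promoter region, chr9:102723414-102724168, 880 bases after the start of another transcript, had 66 and 33 reads (-0.17). The strongest JUN region by level was intergenic, chr9:102673237-102673754, 42.9 kb upstream, with 166 and 72 reads and a level of 76 and 61.2 RPKM. That region was at the 96.9th percentile of all JUN regions per kb and its log2 ratio was -0.33. Only the small intronic region chr9:102726128-102726329, with 10 and 16 reads, was higher by 2-fold (1.37).

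Yap1, the gene of the co-activator YAP, had 5 JUN regions, with 196 reads in TGF-β and 81 in siHK1. The promoter region chr9:8003137-8004011 had 113 and 61 reads, a log2 ratio of -0.04, and accounted for most of these reads. The 4 other regions had negative log2 ratios, from -3.21 to -0.61, and 2 of them passed 2-fold on the deposited scaling. The exonic region chr9:7950256-7950639 had 33 and 4 reads. It was named after its values were seen, and its equal-totals log2 ratio was -2.0 (-4.11 to -0.66). Summed over the gene the ratio was -0.38 (-0.77 to -0.0021), within 3 kb of the start it was 0.01, and without the promoter region it was -1.13. The mean of the deposited ratios of its 5 regions, with the -3.21 among them, was -1.32. For chr9:7930784-7930988, with 7 and 0 reads, the equal-totals interval ended at 0.36 and so included no difference.

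Wwtr1, the gene of TAZ, had some of the highest JUN levels and little difference between the libraries. The exonic region chr3:57501471-57502145 had 191 and 98 reads (log2 ratio -0.08), at the 96.5th percentile per kb. The intronic region chr3:57510115-57510651 had 155 and 71 reads (-0.26), at the 96.1st percentile. At the promoter, chr3:57575647-57576784 had 100 and 65 reads (0.22). None of the 11 regions passed 2-fold, and the summed reads of 814 and 451 gave 0.04 (-0.13 to 0.21). The region with the largest difference among them was chr3:57550734-57551369, with 63 and 67 reads and a log2 ratio of 0.90.

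Tead1, which encodes a TEAD factor that brings YAP to DNA, had the most JUN regions of the group, 23, with 1892 reads in TGF-β and 1139 in siHK1. Its summed log2 ratio was 0.16 (0.05 to 0.27), and the mean of the deposited ratios was -0.07. The widest and most deeply covered region, chr7:112662355-112664356, lies 15.0 kb upstream of a start site and had 394 and 170 reads (-0.29). The highest level per kb was in the intronic region chr7:112720068-112720765, with 258 and 192 reads, or 87.7 and 121 RPKM. This region was at the 99.3rd percentile of all JUN regions, and its log2 ratio was 0.47 (equal-totals interval 0.19 to 0.74). A further intronic region, chr7:112696752-112697933, had 239 and 161 reads (0.32). The promoter region chr7:112678541-112679335 had 94 and 57 reads (0.12). At promoters of other transcripts, 32 and 9 reads gave -1.0, just short of the 2-fold call, and 55 and 52 reads gave 0.73. The 2 Tead1 regions that were called lower had 9 and 1, and 15 and 3 reads.

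Vgll3, a vestigial-like co-factor of TEAD, had more JUN reads in siHK1 at equal totals, the largest difference of summed reads among the 8 genes. By the mean of deposited ratios it was 0.41, smaller in size than that of Yap1. Its 11 regions had 347 reads in TGF-β and 271 in siHK1, and the summed log2 ratio was 0.54 (0.30 to 0.77), above the upper quartile of all 16970 genes with a JUN region (0.23; median -0.01). The region chr16:65829268-65829759, 655 bases after the start of another transcript, had 18 reads in TGF-β and 40 in siHK1, a log2 ratio of 1.88, and a JUN peak in siHK1 alone. The intronic region chr16:65823836-65824324 had 30 and 39 reads (1.15), and the upstream region chr16:65766012-65766276 had 12 and 19 (1.37). These 3 were the only Vgll3 regions past 2-fold. At the main promoter, chr16:65814931-65815341, the reads were 43 and 21 (-0.22), and at the start of another transcript, chr16:65828336-65828582, 23 and 17 (0.33), so the higher values lay inside and upstream of the gene and not on its first start site. The Vgll3 region with the highest level, chr16:65818824-65819143, had 81 and 57 reads (0.33) at the 97.0th percentile per kb.

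The central 200 bases of that Vgll3 region and of the strongest Amotl2 region held both a TEAD and an AP-1 motif, and they are printed for that reason, with every copy of both motifs in capitals (build GRCm38.p6, plus strand).
Vgll3, chr16:65818884-65819083: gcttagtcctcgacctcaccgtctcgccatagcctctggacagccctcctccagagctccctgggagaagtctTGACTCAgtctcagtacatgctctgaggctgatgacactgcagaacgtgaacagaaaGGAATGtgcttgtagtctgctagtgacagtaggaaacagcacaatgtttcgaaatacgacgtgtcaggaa
Amotl2, chr9:102673396-102673595: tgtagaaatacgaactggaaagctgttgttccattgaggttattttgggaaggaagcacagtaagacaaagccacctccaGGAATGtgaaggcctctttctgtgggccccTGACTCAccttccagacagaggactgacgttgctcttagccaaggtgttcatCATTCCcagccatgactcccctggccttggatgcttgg
Both motifs were in 4 of the 83 JUN regions (4.82%) and in 4.63% of all JUN regions. The TEAD motif, with or without AP-1, was counted in 17 of 83 (20.5%, against 14.4% of all), the AP-1 motif in 21 (25.3%, against 29.2%), CAGAC in 44 (53.0%, against 44.5%) and GGAAA in 48 (57.8%, against 47.6%).

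Among the targets, Ccn1 encodes a secreted matricellular protein and is a standard readout of YAP activity. It had 10 JUN regions with 634 and 334 reads, a summed log2 ratio of -0.03 (-0.23 to 0.16). Its start-site region chr3:145650041-145650271, which spans the TEAD motif, had 25 and 9 reads (-0.66). A region 1590 bases upstream, chr3:145651571-145652205, had 67 and 39 (0.05). The strongest, chr3:145684787-145685616, lies 34.8 kb upstream and had 146 and 76 reads (-0.08). It was one of the places where JUN, SMAD3 and NFATC2 regions overlapped. The 2 Ccn1 regions called lower had 12 and 3, and 15 and 3 reads.

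Ankrd1, a cardiac ankyrin repeat gene and YAP target, had 6 JUN regions, none of them past 2-fold. The promoter region chr19:36119760-36120646, which holds both TEAD motifs, had 126 and 77 reads (0.15). Distal regions 8.55 kb and 87.5 kb upstream had 118 and 74 reads (0.18) and 123 and 75 reads (0.14). The summed ratio over 412 and 253 reads was 0.19 (-0.04 to 0.42). At equal totals the log2 ratios of these 3 regions lay between 0.18 and 0.22, with intervals that included 0.

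Ccn2 encodes a matricellular protein, also called connective tissue growth factor, that is induced by TGF-β. In GENCODE vM21 it lies at chr10:24595442-24598683 on the plus strand, and the antisense gene Gm15270 has a start site 375 bases inside it. The authors' annotation gave the regions at this start to Gm15270, so they were taken by position within 3 kb of the Ccn2 start, a choice made after the data were seen. The JUN region on the start, chr10:24595316-24595898, had 100 and 58 reads (log2 ratio 0.06), at the 89.2nd percentile per kb. A second JUN region, 779 bases inside the gene, had 60 and 23 reads (-0.55). The SMAD3 region chr10:24595492-24596453 had 19 reads in TGF-β and 37 in siHK1 (1.31), with an equal-totals ratio of 1.44 (0.62 to 2.34). It had a SMAD3 peak in siHK1 alone, so it was listed through the library where it was higher, and the interval does not allow for this. Of all SMAD3 regions, 27.5% were higher in siHK1 by 2-fold. The 37 siHK1 reads were above the highest count of the other 8 genes (21), whereas the 19 TGF-β reads were not. These counts are not scaled by region width. NFATC2 had 5 and 0 reads in a region 1358 bases inside, too few to compare, with an interval that ended at 0.83. No H3K9lc region lay within 3 kb, and the nearest began 5019 bases after the start, beyond the end of the gene, with 12 and 3 reads.

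**Figure D3:**
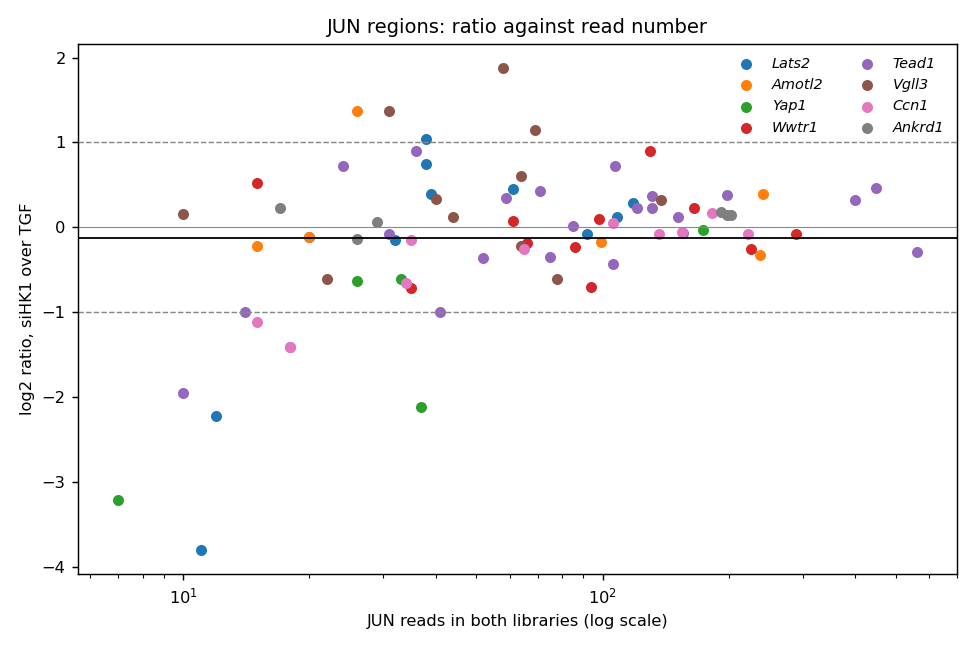
Log2 ratio of siHK1 over TGF-β (deposited scaling) against the JUN reads of both libraries (log scale) for the 83 JUN regions, coloured by gene; dashed lines mark 2-fold and the black line the median of all JUN regions (-0.13). Most of the lower regions have few reads. The deepest lower region is in Yap1 (33 and 4 reads) and the deepest higher region in Vgll3 (30 and 39 reads).

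H3K9lc at these genes was largely a pattern of Vgll3 and Ankrd1, which held 15 and 6 of the 30 regions. In siHK1 5 regions were lower by 2-fold (16.7%, with 16.4% of all 74751 H3K9lc regions lower) and 2 were higher (6.67%, with 10.6% of all higher). The median log2 ratio was -0.20 at these genes and -0.19 over all regions. None of the 7 called regions was above the median H3K9lc level.

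The Vgll3 regions lay in 2 groups, from 24.5 to 64.1 kb upstream and from 233 to 401 kb downstream of a start site, besides the one at 2552 bases. They summed to 344 reads in TGF-β and 158 in siHK1, an equal-totals log2 ratio of -0.31 (-0.59 to -0.03), where the lower quartile of all 12994 genes with an H3K9lc region was -0.30. The most deeply covered, chr16:66141261-66142330, had 71 and 30 reads (-0.48), and the upstream region chr16:65790217-65790716 had 42 and 16 (-0.64). Vgll3 thus had fewer H3K9lc reads and more JUN reads in siHK1 at equal totals, at different regions: none of the 15 Vgll3 H3K9lc regions overlapped a JUN region. The H3K9lc interval ended close to 0, at -0.03. Leaving out the 50 deepest regions moved the median of all H3K9lc regions from -0.08 to -0.03. For Ankrd1 the sums were 104 and 56 reads (-0.08, -0.58 to 0.40), and the mean of the deposited ratios was -0.55. Its region chr19:36124756-36125147 had 20 reads in each library (0.68), while 2 of its 6 regions were lower, chr19:36171311-36171600 with 10 and 1 reads (-2.16) and chr19:36193585-36194098 with 19 and 4 (-1.43).

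At Tead1, the single H3K9lc region chr7:112637351-112639183, 40.1 kb upstream, had 73 and 50 reads (0.21). In Yap1 both regions lay in the 3′ UTR, with 44 and 17 reads in chr9:7934666-7935386 (-0.62) and 18 and 18 in chr9:7933140-7933530 (0.68). The Yap1 region chr9:7934666-7935386 overlapped a JUN region (24 and 9 reads), a SMAD3 region (21 and 13) and an NFATC2 region (8 and 0), and the log2 ratio was negative with all 4 antibodies. The equal-totals intervals there were -1.46 to 0.28 for H3K9lc and -1.81 to 0.63 for JUN. For SMAD3 the deposited log2 ratio was -0.29. The NFATC2 interval, from 8 and 0 reads, ended at -0.072. Ccn1, Amotl2, Wwtr1 and Lats2 had at most 14 H3K9lc reads in any region, and their summed intervals all included 0.

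The comparison of TGF-β with NC for H3K9lc could not resolve these genes. The NC library had 20.02 times fewer listed reads, and 16 of its 26 regions at these genes had 0 NC reads. With 3 reads as the most that a count of 0 allows, a region would need over 60.05 TGF-β reads at equal totals before a rise could be seen, and the highest count among the 16 was 30. On the deposited scaling 18 regions were higher in TGF-β (69.2%, with 50.1% of all 65853 regions higher) and 2 were lower (7.69%, with 11.9% of all lower). At equal totals 3 were higher, and the median log2 ratio went from 1.45 to 0.32. The same change of scaling moved the median of all regions from 1.01 to -0.08. For the Tead1 region chr7:112637351-112639037 the reads were 2 in NC and 71 in TGF-β, for Vgll3 9 and 318 over 14 regions, for Ankrd1 3 and 101 over 7, and for Yap1 1 and 61 over 2. Equal-totals intervals of all 4 genes included 0. Lats2 and Wwtr1 had no region in this table. The TGF-β library is the same one as in the comparison with siHK1.

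**Figure D4:**
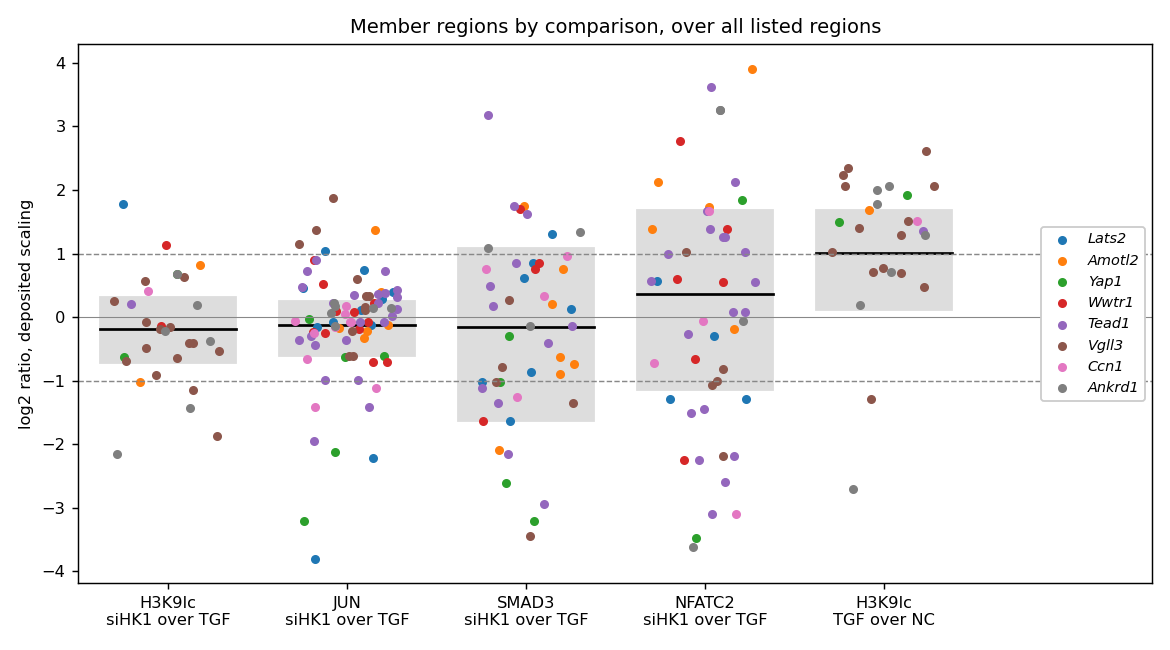
Log2 ratios on the deposited scaling for every region of the 8 genes in the 5 tables, coloured by gene; grey boxes span the quartiles of all listed regions, black lines their medians and dashed lines 2-fold. The JUN regions of these genes cluster near 0, and those of SMAD3 and NFATC2, with few reads, spread across the boxes and beyond.

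SMAD3, which carries the TGF-β signal to DNA, had 46 regions at the 8 genes, with 0 to 21 reads in either library. In siHK1 15 were lower by 2-fold (32.6%, with 35.8% of all 58633 SMAD3 regions lower) and 8 were higher (17.4%, with 27.5% of all higher). At equal totals 11 were lower and 14 higher, and the median log2 ratio went from -0.14 to 0.13, while that of all SMAD3 regions went from -0.16 to 0.0095. Of the called regions, 6 had 0 reads in one library. All 15 lower and 7 of the 8 higher regions had fewer than 20 reads in both libraries together. The exception was an intronic Tead1 region, chr7:112717374-112718100, with 8 reads in TGF-β and 21 in siHK1 (log2 ratio 1.63, equal-totals interval 0.65 to 3.27). It had a SMAD3 peak in siHK1 alone, so it was listed through the library where it was higher, and the interval does not allow for this. Of the 46 regions, 5 had a peak in both libraries (10.9%, against 4.98% of all SMAD3 regions). A further 21 had one in TGF-β alone and 20 in siHK1 alone. Tead1 as a whole had 43 and 51 SMAD3 reads, a summed ratio of 0.74 (0.13 to 1.36), where the median of all 16630 genes with a SMAD3 region was 0.20 and the upper quartile 1.03. The mean of the deposited ratios of its 12 regions was -0.0041, with 4 regions lower and 3 higher. Leaving out chr7:112717374-112718100 the sum was 0.28. Above the median SMAD3 level 3 called regions were lower and 5 higher. The lower ones were at Amotl2, Ccn1 and Tead1. Near an Amotl2 start site, chr9:102724031-102724363 had 13 and 2 reads (-2.10). At 10.3 kb upstream of Ccn1, chr3:145660258-145660661 had 13 and 4 (-1.25), and a Tead1 region had 6 and 2 (-1.12). The higher ones, besides the Tead1 region above, were chr9:102726667-102726962 in Amotl2 and a further Tead1 region, each with 2 and 7 reads (1.75), a Lats2 promoter region with 2 and 5 (1.31) and an Ankrd1 region with 3 and 6 (1.09). Amotl2 thus had called regions in both directions, and its distal region chr9:102701637-102702173 had 20 and 9 reads (-0.73). Lats2 had 14 and 12 reads in chr14:57743111-57743512 (0.13). At the Ankrd1 promoter the reads were 1 and 3, and at the Wwtr1 promoter 5 and 1 in one region and 1 and 4 in the next, too few to compare.

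NFATC2, a calcium-responsive factor of the NFAT family, had 49 regions at these genes and no more than 11 reads in any of them. Of these, 15 were lower by 2-fold (30.6%, with 28.6% of all 68767 NFATC2 regions lower) and 18 were higher (36.7%, with 37.2% of all higher). Of these called regions, 13 had 0 reads in one library. Above the median NFATC2 level 7 called regions were lower, with log2 ratios from -2.18 to -1.0, in Tead1 (3), Lats2 (2) and Vgll3 (2). The 10 higher ones, from 1.03 to 2.13, were in Tead1 (4), Amotl2 (2), Ccn1, Vgll3, Wwtr1 and Yap1. None of the 49 regions had an NFATC2 peak in both libraries, where 3.61% of all NFATC2 regions had a peak in both. A peak was called in TGF-β alone at 23 and in siHK1 alone at 26. Amotl2 had 7 reads in TGF-β and 20 in siHK1 over 5 regions, a summed log2 ratio of 2.15 (0.91 to 3.70), and 4 of the 5 were higher. Each of the 5 was listed through a peak in only the TGF-β or only the siHK1 library, and the interval does not allow for this. The upper quartile of all 17378 genes with an NFATC2 region was 0.99. Vgll3 had 26 and 8 reads (-0.94, -2.35 to 0.18), Ccn1 25 and 14 (-0.12, -1.19 to 0.86) and Tead1 71 and 52 over 19 regions (0.25, -0.29 to 0.79). The NFATC2 region of Ccn1 with the most reads, chr3:145685274-145685605, lies in the distal JUN region named above and had 11 and 4.

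Regions of different antibodies were set side by side by position. Of the 46 SMAD3 regions, 24 (52.2%) overlapped a JUN region by at least 1 base, against 23.0% of all SMAD3 regions, and of the 49 NFATC2 regions 18 (36.7%) did, against 16.7% of all. Counted from JUN, 21 of 83 regions (25.3%) overlapped a SMAD3 region, against 18.1% of all, and 16 (19.3%) an NFATC2 region, against 15.4%. H3K9lc overlapped 3 JUN regions (3.61%, against 6.07% of all), one each at Tead1, Yap1 and Amotl2. Regions of a gene are not independent of each other, and these shares were not tested.

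Other genes of the pathway were counted from a list chosen in the same way. Of 27 further Hippo genes (upstream kinases, scaffolds and co-factors), 26 had JUN regions, 208 in all, of which 25 (12.02%) were lower and 8 (3.85%) higher in siHK1, against 13.7% and 5.66% of all JUN regions. Stk3, the kinase MST2 that acts above LATS, had an intronic region chr15:35076842-35077739 with 203 and 52 JUN reads, a log2 ratio of -1.07 (equal-totals interval -1.54 to -0.63). At the promoter of Nf2, the gene of the upstream regulator Merlin, chr11:4832765-4833274 had 20 and 28 reads (1.23). These 2 were the only JUN regions of the list past 2-fold and above the median JUN level. For H3K9lc, 15 of 88 regions (17.0%) were lower and 8 (9.09%) higher, against 16.4% and 10.6% of all H3K9lc regions. The 1 called region above the median level lay 212 kb from an Amot start site, with 48 and 11 reads (-1.35).

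Of 17 further YAP and TEAD target genes, all 17 had JUN regions, 256 in all, of which 30 (11.7%) were lower and 19 (7.42%) higher, again against 13.7% and 5.66% of all JUN regions. The median log2 ratio was -0.02 for these targets and -0.09 for the further Hippo genes. Asap1, an ARF GTPase-activating protein gene, had 3 regions higher above the median JUN level, with 41 and 50, 27 and 34, and 24 and 36 reads (1.07, 1.10 and 1.34). F3, the gene of tissue factor, had a region 23.3 kb upstream with 75 and 19 reads (-1.13). For H3K9lc, 23 of 122 regions (18.9%) of these targets were lower and 5 (4.10%) higher, with 16.4% and 10.6% of all H3K9lc regions.

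With SMAD3, 39 of 140 regions of the further Hippo genes were lower (27.9%) and 45 higher (32.1%), and 37 of 148 regions of the further targets were lower (25%) and 42 higher (28.4%). Over all SMAD3 regions the shares were 35.8% and 27.5%. With NFATC2, 25 of 108 regions of the Hippo genes were lower (23.1%) and 42 higher (38.9%), and 40 of 152 regions of the targets were lower (26.3%) and 55 higher (36.2%). Over all NFATC2 regions they were 28.6% and 37.2%. For H3K9lc in TGF-β over NC, 9 of 82 regions of the Hippo genes were lower (11.0%) and 41 higher (50%), and 13 of 114 regions of the targets were lower (11.4%) and 63 higher (55.3%). Over all regions of that table the shares were 11.9% and 50.1%, and at equal totals the medians of the lists were -0.24 and 0.07.

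Genes with a pattern like that of Ccn1 were looked for over the 8 libraries of the 4 TGF-β and siHK1 tables, by Euclidean distance of log2(reads per 1000000 listed reads + 1) among 7877 genes with a region in all 4 tables. The 3 nearest were Herc2 (distance 0.71), Ttc7 (0.74) and Crispld2 (0.92), where the median gene was at 6.02. These distances follow how many regions and reads a gene holds with each antibody. For Ccn2, which has no region of its own name, no such search could be made.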

How the data were processed

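CUT&Tag libraries were profiled in 9 of the 10 samples; the library titled TGF, with no antibody in its labels, was not used, and with it 6 columns of values per library. The authors' methods name Bowtie2, MACS2, GRCm39 and spike-in DNA, and the submitters' processing notes name BWA 0.7.12 and mm10. All 48676 transcripts found in GENCODE vM21 had its coordinates, so positions are on GRCm38 and counted from 1. The deposited read counts are raw counts of reads per region. The deposited normalized log2 values, made by the authors, are a straight line in log2(count + 0.5), with a slope of 1 in siHK1 and NC and from 0.861 to 0.964 in TGF-β. The deposited peak calls (0 or 1) are other values used as given. The authors' own ratios, p-values, adjusted p-values and calls in the files were not used.

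Ratios were the difference of the deposited log2 values of the 2 libraries; equal totals means log2(count + 0.5) scaled by total listed reads. Exact Poisson and conditional binomial (Clopper-Pearson) 95% intervals cover counting error only. A count of 0 was taken to allow up to 3 reads when the depth of NC was judged. Log2 ratios against a count of 0 are set by the added 0.5 and are not exact. Regions to name were, per gene and table, the one with the highest mean deposited log2 value, promoter regions, and regions past 2-fold above the table's median level; for SMAD3, NFATC2 and H3K9lc, where reads are few, the text prints only part of these and gives the rest as counts. Others are examples chosen after their values were seen. The genes and lists were chosen with earlier results of these data known. Overlaps used bedtools 2.31.1, motifs Python 3 scripts on RefSeq sequence and samtools. Calculations were tested on simulated data in deeply covered regions only, so the test did not cover regions with few reads. Alternatives were other scalings, pseudocounts of 1 and 0.1, 4-fold, level and distance filters.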

Additional observations from a re-analysis of the deposited data

How the results depend on the processing

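No paired analysis was possible because there was 1 library for each antibody in each condition, and for the same reason no replicate could be left out. Scaling by equal totals shifted the median of all regions of siHK1 over TGF-β by 0.11 (H3K9lc) and 0.17 (SMAD3), and that of TGF-β over NC by -1.09. Leaving out the 50 deepest regions, like taking Ccn2 by position, was chosen after seeing the data. Of 70 alternative values for counts and medians 28 stayed within 1.5 times the count or within the ranks next to the median.

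Past 4-fold, H3K9lc had 1 region lower and 0 higher. JUN had 4 and 0, SMAD3 had 6 and 1, NFATC2 had 9 and 7, and TGF-β over NC had 1 and 6. Above the median level the counts were 0 and 0, 0 and 2, 3 and 5, 7 and 10, and 1 and 4 in the same order. At equal totals 11 SMAD3 regions were lower and 14 higher, and 3 were higher for TGF-β over NC. Without the 50 deepest regions 3 H3K9lc regions were lower, and 2 were higher for TGF-β over NC.

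The JUN median of -0.04 turned to 0.058 at equal totals, 0.085 and 0.036 with pseudocounts of 1 and 0.1, 0.11 above the median level, 0.12 within 3 kb of a start site and 0.073 without the 50 deepest regions. The SMAD3 median of -0.14 turned to 0.13, 0.17, 0.092, 0.20, 0.13 and 0.10 in the same order. The NFATC2 median of 0.08 (0.36 over all NFATC2 regions) was -1.05 within 3 kb, over 6 regions with at most 9 reads in a library. The TGF-β over NC median of 1.45 became 0.32 at equal totals, -0.39 and 2.40 with pseudocounts of 1 and 0.1, 0.74 above the median level and 0.045 without the 50 deepest regions. Summed reads changed sign when the deposited ratios were averaged over regions instead, to -0.30 for Lats2 and -0.074 for Tead1 with JUN and to -0.0041 for Tead1 with SMAD3. For Yap1 with JUN, the sum within 3 kb was 0.0081. These 4 sums had intervals without 0. Of 14 changes of sign in all, the others concerned sums whose interval included 0. Averaged ratios were -0.10 for Amotl2 and 0.028 for Yap1 with H3K9lc, -0.032 for Wwtr1 with JUN, -0.086 for Lats2 with SMAD3 and -0.81 for Yap1 with NFATC2. Without the region with most reads the sums were 0.81 for Yap1 with H3K9lc, -0.10 for Amotl2 with JUN and 0.23 for Ccn1 with NFATC2. For Yap1 with NFATC2 this left 8 reads in TGF-β and 0 in siHK1. The resulting value of -3.39 depends on the amount added to each count and is not exact. Its equal-totals interval ended at -0.072. Within 3 kb Wwtr1 with NFATC2 had 3 reads in TGF-β and 0 in siHK1. Its value of -2.11 is not exact for the same reason, and its interval ended at 1.97 and so included no difference. Of 89 such alternatives for gene sums 73 moved by less than the counting interval, and of 12 overlap counts taken at 50% of the shorter region 10 stayed within 1.5 times. The cause of these changes was not tested.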
